A study of Mus musculus with 21 samples.

Results

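Described here are 108 DNA sequences of 8 bases (8-mers), of 65535 in the deposited table, that carry the PAR half-site GTAA directly after the cytosine of a CpG and no full palindrome around it. They were found by rule. The half-site is the right end of the PAR palindrome TTACGTAA, so a member ends in CGTAA after 3 free bases, or is the reverse complement of such an 8-mer and begins with TTACG. Of 127 candidates, 19 lay within 1 mismatch of the PAR palindrome, of the CRE palindrome TGACGTCA or of the C/EBP palindrome TTGCGCAA and were left out. No probe carried 1 member, cccCGTAA, which stood at a Z-score of 0 and was not counted, leaving 107 measured members: 53 ending in CGTAA (forward), 54 beginning with TTACG (reverse), and 53 complete pairs of reverse complements.

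Transcription factors of the bZIP class bind DNA as dimers, each monomer placing a basic helix in the major groove over its side of a short palindrome. CREB1 is known for the CRE, CEBPB for the C/EBP site, and the proline- and acid-rich (PAR) subfamily for a palindrome whose half-site ends in AA where that of the CRE ends in CA. In all of these palindromes a CpG can sit at the centre, so its cytosines, the usual targets of methylation in mammalian genomes, lie under the protein. The members here keep a single PAR half-site with its CpG and vary the bases on the far side.

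The study bound the DNA-binding domains of mouse CREB1 and CEBPB, and of 1 point mutant of each, CREB1(A297V) and CEBPB(V285A), to protein binding microarrays. The proteins carried a GST tag at the N-terminus and were made from plasmid with an in vitro transcription and translation kit. The second strand of each array was copied with one of 3 forms of the cytosine base, plain (C), methylated at carbon 5 (5mC) or hydroxymethylated there (5hmC), which leaves the printed strand unmodified. There were 2 arrays each of CREB1 on C, CEBPB(V285A) on C, CREB1(A297V) on C, CEBPB(V285A) on 5mC, CREB1(A297V) on 5mC, CEBPB on 5hmC, CREB1 on 5hmC and CEBPB(V285A) on 5hmC, 1 of CREB1 on 5mC and 4 of CREB1(A297V) on 5hmC. Wild-type CEBPB on C and on 5mC was not analysed here.

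All sequences are written 5′ to 3′ as the copied strand, on which every C is the modified base on 5mC and 5hmC arrays. In a forward member the modified CpG cytosine thus stands directly before GTAA, and in a reverse member the modified cytosine is its neighbour across the CpG. This reading assumes that the printed strand was the template; otherwise forward and reverse would trade places. The members on which the results turn are printed here, in capitals the 5 bases CGTAA or their complement TTACG and in lower case the 3 free bases; they are shown because they were the highest or the most changed members of at least 1 protein, and each pair of lines is one duplex in both orientations.
tgt, forward: tgtCGTAA
tgt, reverse: TTACGaca
cga, forward: cgaCGTAA
cga, reverse: TTACGtcg
caa, forward: caaCGTAA
caa, reverse: TTACGttg
aca, forward: acaCGTAA
aca, reverse: TTACGtgt
atg, forward: atgCGTAA
atg, reverse: TTACGcat
tcg, forward: tcgCGTAA
tcg, reverse: TTACGcga
gaa, forward: gaaCGTAA
gaa, reverse: TTACGttc

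Values are the authors' Z-scores, which place an 8-mer within its own array around a median of 0. They were not scaled between arrays, whose highest Z-score ran from 15.7 to 256, and measure relative preference, not affinity. The number of probes behind a member had a median of 18 and reached 34. The median signal of an array was 0.965 to 5.85 times its local background, and no reading of a member's probe was saturated. Differences were tested with limma over all 8-mers, with Benjamini-Hochberg adjustment, and called at an adjusted p under 0.05. Whether the replicates are separate preparations of a protein is not in the labels, and p-values therefore measure only the spread between these arrays. The signal files carried numbers that are read here as experiments, although what they stand for is not stated. The arrays of CREB1 and CREB1(A297V) on C and on 5mC shared 1 number with 2 of the 4 CREB1(A297V) arrays on 5hmC. The CREB1 arrays on 5hmC had another number than those on C, and CEBPB(V285A) had a different number for each cytosine form. If the numbers mark batches, the form of the base and the batch cannot be told apart in CEBPB(V285A), nor in CREB1 between 5hmC and C.

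On unmodified DNA most members scored above the array median of 0, but well below the full palindrome. Of 107 members, 107 had a mean above 0 in CEBPB(V285A), 104 in CREB1 and 101 in CREB1(A297V). Their median Z-score was highest in CEBPB(V285A), at 2.52, and stood at 1.66 in CREB1 and 1.27 in CREB1(A297V). The PAR palindrome itself scored 241 ± 13.2, 34.0 ± 5.14 and 55.1 ± 10.8 in the same order (SD, n = 2). Forward and reverse medians on C were 2.47 and 3.21 in CEBPB(V285A), 1.65 and 1.69 in CREB1, and 1.25 and 1.30 in CREB1(A297V). Single pairs went both ways: in CEBPB(V285A) the forward member was above in both arrays in 19 of 53 pairs and the reverse member in 21. The other 13 overlapped, and the median difference within pairs was -0.162. Among all pairs, 73.9% did not overlap on these arrays, a share close to that of the members.

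Medians of the forward members differed with the free base next to the CpG, with wide ranges. With A at that place, a member spells ACGT, the centre of both the CRE and the PAR palindrome. The 9 forward members with A there had a median on C of 9.54 in CEBPB(V285A), 6.10 in CREB1 and 3.32 in CREB1(A297V). The 14 with C there had 1.69, 0.848 and 0.613. Those with G or T, 15 each, lay between: G gave 2.43 in CEBPB(V285A), 1.61 in CREB1 and 1.34 in CREB1(A297V), and T gave 2.47, 1.65 and 0.920. Single members departed from this order: the highest forward member of all 3 proteins on C was tgtCGTAA, with T next to the CpG, and the A class ran down to 1.10 in CREB1(A297V). In the reverse orientation the A class (T after TTACG) had a median of 9.11 in CEBPB(V285A), 4.47 in CREB1 and 2.00 in CREB1(A297V), and its lowest members were at 2.35, 0.566 and -0.473.

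The core was read differently by the proteins. With the same free bases, the CRE half-site GTCA after the CpG cytosine had a forward median of 5.18 for CREB1 on C, against 1.65 for the members, and lay above the member in both arrays for 42 of 53 free triplets. For CEBPB(V285A) this was 8.35 against 2.47, in 43 of 53. For CREB1(A297V) it was 0.775 against 1.25, and the member lay above in 28 of 53 and below in 8. Of these 53 8-mers with the CRE half-site, some lay within 1 mismatch of a palindrome, as no member does. Without them, a choice made after the data were seen, 47 triplets were left, and the CRE half-site lay above in 39 for CREB1 (median 5.03 against 1.55), in 39 for CEBPB(V285A) (7.67 against 2.25) and in 7 for CREB1(A297V) (0.660 against 0.932), where the member lay above in 24. This mutant also gave a higher forward median to GTAA after T (2.15) than after the CpG cytosine (1.25) on C, whereas the order was reversed in CEBPB(V285A) (1.29 against 2.47) and in CREB1 (0.982 against 1.65). The counts of triplets above have no like share over all 8-mers beside them. For scale, an 8-mer and its reverse complement did not overlap in 71.3% of all pairs for CREB1 on C. The share was 73.9% for CEBPB(V285A) and 64.4% for CREB1(A297V).

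One pair stood apart for CREB1(A297V) on C. The forward member tgtCGTAA scored 22.4 and 24.2, rank 5 of all 8-mers, and its reverse complement TTACGaca scored 14.3 and 23.2, rank 8. The third member, acaCGTAA, scored 6.47 and 4.53, so the pair lay far above the rest. CREB1 gave TTACGaca 6.71 and 7.91 on C, below both mutant arrays, and the difference between mutant and wild type was 11.5 (SE 1.89, limma adjusted p = 0.0064). Without the second CREB1 array on C this call was lost (12.1, adjusted p = 0.059), and it was not made on the asinh scale or after normexp background correction. The same difference for tgtCGTAA was 12.8 (SE 3.49, adjusted p = 0.10) and not called, the CREB1 arrays being at 8.39 and 12.5. Of all 107 members, 1 was called higher and 4 lower in CREB1(A297V) than in CREB1 on C, or 4.67% of members against 1.53% of all 8-mers (0.108% higher and 1.42% lower). The 4 lower members were TTACGtcg at -8.87, TTACGttg at -4.41, agaCGTAA at -4.18 and gcaCGTAA at -4.10, all with the ACGTAA stretch on one strand. Leaving out 1 array gave between 0 calls (without the second CREB1 array on C) and 7 (without the first).

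With 5mC, TTACGaca fell in CREB1(A297V), while the change of its reverse complement tgtCGTAA did not pass the test. The forward member scored 18.0 and 24.6 on 5mC, overlapping the C arrays and ranking 4 of all 8-mers, a change of -1.94 (SE 3.49, adjusted p = 0.90). TTACGaca fell to 3.69 and 2.13, a change of -15.9 (SE 1.89, limma adjusted p = 0.0079) with no overlap between groups. TTACGaca carries another modified cytosine, in its free bases, which tgtCGTAA lacks. The change in forward minus reverse within the pair, 13.9 (SE 3.71, unadjusted p = 0.0010), did not pass the adjustment over all pairs (adjusted p = 0.23). The fall of TTACGaca was the only call among the members (0.935% of 107, against 0.0137% of all 8-mers called lower). It was lost without the second CREB1(A297V) array on 5mC (-15.1, adjusted p = 0.13), on the asinh scale and after normexp background correction.

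With 5hmC TTACGaca fell as well. It scored 2.01, 0.662, 0.169 and 1.23, a change of -17.7 (SE 1.64, limma adjusted p = 0.00039), again the only member called (0.935%, against 0.197% of all 8-mers called lower). The call held without each of the 6 arrays in turn, on the asinh and quantile scales and after normexp. Within the 2 arrays on 5hmC of the experiment that also held the C arrays, the difference was -17.4 and was not called. tgtCGTAA scored 9.70, 12.3, 10.7 and 9.16, below both C arrays and still rank 15, a change of -12.8 (SE 3.03, adjusted p = 0.084). No pair was called for a change of orientation with 5hmC (0 of 53 in limma on pair differences, against 0.968% of all pairs). An unadjusted p under 0.05 was found in 1 of 53, and in 17.2% of all pairs. The 5hmC effect on TTACGaca differed from that in CREB1 by -11.8 (SE 2.50, adjusted p = 0.048), the only member called in that test (0.935%, against 0.520% of all 8-mers called lower), and the call was lost in 8 of 10 fits that left out 1 array.

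Probe signals of the same arrays showed the same order, which is not separate evidence. Each of these 2 members stood on 17 probes. The signals were not corrected for background. For CREB1(A297V) the median signal was 2.76 and 1.79 times the local background on C, and 1.32 and 1.30 times on 5mC. On 5hmC it was 1.30, 0.965, 1.13 and 2.40 times. On the C arrays of CREB1(A297V) the median signal of the probes with TTACGaca was 2.79 and 3.79 times the array's median signal, on 5mC 1.75 and 1.26 times, and on 5hmC 1.26, 0.996, 1.00 and 1.09 times. For tgtCGTAA the ratios were 4.07 and 3.60 on C, 3.31 and 3.68 on 5mC, and 2.01, 2.10, 1.66 and 1.72 on 5hmC. The probes of the reverse member were thus at 0.996 to 1.26 times the array median on 5hmC, while those of the forward member stayed above the median on every array.

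Most of the other forward members of CREB1(A297V) had higher values on 5mC than on C, but none was called. On 5mC 37 of 53 pairs had the forward member above the reverse in both arrays and 3 the reverse order, against 15 and 12 on C. Among all pairs of 8-mers, 59.8% did not overlap on 5mC and 64.4% on C. The median change of the forward members was 1.83, that of the reverse members -0.0225, and that of all 8-mers 0.0600. Of 53 forward members, 50 changed upward and 30 had an unadjusted p under 0.05, where 10.6% of all 8-mers had one. Of 53 pairs 0 were called for a change of orientation in limma (0.00613% of all pairs), although 21 had an unadjusted p under 0.05. Among all pairs 9.71% had one. The second 5mC array stood higher (forward median 4.15 against 2.46).

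By first base, the 14 measured members beginning with C had a median change of 3.65, against 1.82 for those beginning with A, 1.38 with G and 1.54 with T. The difference between these classes was not tested. A first C is itself modified on the 5mC arrays, so the base and its modification cannot be told apart. Without the second 5mC array the medians were 2.00, 1.12, 0.622 and 0.538, and without the first 5.74, 2.45, 2.10 and 2.03. caaCGTAA went from 3.83 and 4.17 on C to 9.80 and 18.1 on 5mC, rank 12, a change of 9.97 (SE 2.11, adjusted p = 0.12). ctgCGTAA went from 0.0503 and 0.558 to 7.21 and 14.9, a change of 10.7 (SE 2.11, adjusted p = 0.10). In neither did the groups overlap, and neither passed the test. Quantile normalization gave 10 called members in this contrast and leaving out the first 5mC array gave 9, against 1 in the analysis as reported.

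In CREB1 with 5mC, 5 of the 9 reverse members with a T after TTACG were called lower, and no other member was called (4.67% of 107, against 0.412% of all 8-mers called lower). As 5mC had 1 array, the fit took the spread from the other groups and assumed that this array varied like them. TTACGtcg scored 10.0 and 12.4 on C and 1.30 on the single 5mC array, a fall of -9.92 (SE 1.81, adjusted p = 0.019). TTACGttg scored 7.72 and 9.02 on C and 1.44 on 5mC, a change of -6.93 (SE 0.962, adjusted p = 0.0028). The others were TTACGtgt at -6.34, TTACGtgg at -5.87 and TTACGtcc at -4.69. Without the second CREB1 array on C, 2 calls remained in number, with TTACGtcg at -8.74 (adjusted p = 0.14); on the asinh scale 1 call was made.

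The forward members of the same duplexes did not pass the test in CREB1 on 5mC. cgaCGTAA scored 5.39 and 6.81 on C and 4.64 on 5mC (-1.46, adjusted p = 0.92), and acaCGTAA scored 10.3 and 9.09 against 6.45 (-3.26, adjusted p = 0.65). The 9 forward members with A next to the CpG had a median of 4.23 on 5mC, while their 9 reverse complements had 0.396. No pair was called for a change of orientation (0 of 53, against 0.573% of all pairs, limma on pair differences). An unadjusted p under 0.05 was found in 5 of 53, and in 6.40% of all pairs. The highest member of CREB1 on 5mC was TTACGcat at 7.89, which scored 4.85 and 6.10 on C (2.41, adjusted p = 0.95).

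With 5hmC, the members called in CREB1 were lower and of both orientations. Of 107 members 12 were called, all lower (11.2%, against 5.27% of all 8-mers called lower). They were 7 forward and 5 reverse members. The median change was -1.15 in the forward members, of which 45 of 53 were lower. In the reverse members it was -0.103, with 29 lower and 25 higher. The C arrays are those of the 5mC comparison, so the 2 sets of differences are not independent, and the 5hmC arrays carry another experiment number than the C arrays. gaaCGTAA scored 6.12 and 6.60 on C and -0.0568 and -0.344 on 5hmC, a change of -6.56 (SE 0.838, adjusted p = 0.00048). TTACGtcg scored 1.51 and 2.07 on 5hmC, a change of -9.43 (SE 1.48, adjusted p = 0.0020). TTACGttg changed by -5.47, TTACGtgt by -5.31 and agaCGTAA by -5.14. Leaving out 1 array gave 4 to 9 calls, the fewest without the second CREB1 array on C.

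Reverse members of CREB1 stood above their forward partners in most pairs on 5hmC. There 30 of 53 pairs had the reverse member above the forward in both arrays and 10 the forward above, against 13 and 20 on C. Among all pairs, 76.6% did not overlap on 5hmC, a share close to that of the members, and 71.3% on C. The forward median was 0.606 and the reverse median 1.39. Of 53 pairs 5 were called for a change of orientation, or 9.43%, against 15.9% of all pairs, a share below the background. By sign, 4.04% of all pairs were called positive and 11.8% negative. Pairs without the half-site took that sign from alphabetical order, so it has no forward or reverse meaning. The gaa pair moved toward its reverse member by -6.72 (SE 1.10, adjusted p = 0.00032), and the cga pair moved the other way, by 7.12 (SE 2.13, adjusted p = 0.026). The latter call was lost without any 1 of the 4 arrays, and leaving out 1 array gave 1 or 2 calls in all.

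In CEBPB(V285A), the member that was highest on C fell with both modified forms. This was TTACGtcg, at 32.9 and 27.1. On 5mC this member scored 2.14 and 2.89, and on 5hmC 1.95 and 2.43. The falls were -27.5 (SE 1.48, limma adjusted p = 1.7e-08) and -27.8 (SE 1.48, adjusted p = 7.0e-08), without overlap of the arrays. Both were called without each array in turn, on the asinh and quantile scales and after normexp.

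Its reverse complement cgaCGTAA went up on the modified strands. It scored 8.06 and 9.88 on C and 24.9 and 25.3 on 5mC, a rise of 16.1 (SE 1.25, adjusted p = 7.3e-07) that held without each array but was not called on the asinh or quantile scale. On 5hmC it scored 12.8 and 14.2, a rise of 4.53 (SE 1.25, adjusted p = 0.042) that was lost without any 1 of the 4 arrays. This member also begins with a CpG, whose cytosine is modified too. The pair's forward minus reverse difference changed by 43.6 with 5mC (SE 2.13, adjusted p = 1.5e-13) and by 32.4 with 5hmC (SE 2.13, adjusted p = 1.4e-09), both called on the asinh scale and after normexp as well. On the probes, the median signal with TTACGtcg was 6.75 and 5.59 times the array median on C, 1.30 and 1.36 times on 5mC, and 1.18 and 1.21 times on 5hmC; that with cgaCGTAA was 2.36 and 2.50, 5.33 and 5.20, and 1.94 and 2.35 times.

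The other reverse members with T after TTACG also fell. All 9 were called lower in CEBPB(V285A) with 5mC, with a median change of -8.02, and all 9 with 5hmC, with a median change of -7.28. Both comparisons share the C arrays and are not independent. TTACGttg scored 18.4 and 16.7 on C, 2.56 and 1.94 on 5mC, and 2.47 and 2.85 on 5hmC, changes of -15.3 and -14.9. TTACGtgt scored 15.2 and 14.1 on C and changed by -11.5 and -12.5. Over all members, 8 were called higher and 22 lower with 5mC (28.0%, against 6.50% of all 8-mers, 3.01% higher and 3.49% lower). With 5hmC 2 were called higher and 29 lower (29.0%, against 7.26%, 2.36% higher and 4.90% lower). The scale changed these counts. The asinh scale called 11 and 10 members, quantile normalization 9 and 10, and normexp 10 and 10. Leaving out 1 array gave 15 to 22 and 14 to 21 calls, the fewest in both without the first CEBPB(V285A) array on C.

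The forward members called higher with 5mC mostly began with C: 4 of 5, out of 14 measured members with that base. They included cgaCGTAA, ctgCGTAA and cgcCGTAA. Here too the first C is itself modified, so the base and its modification cannot be told apart. ctgCGTAA went from 5.37 and 4.70 to 10.3 and 17.1, a rise of 8.67 (SE 2.11, adjusted p = 0.021) that was lost without 3 of the 4 arrays in turn (5.23, adjusted p = 0.28, without the second 5mC array). cgcCGTAA rose by 3.76 (adjusted p = 0.045) and was likewise lost without 3 of 4 arrays (2.11, adjusted p = 0.45, without the first 5mC array). None of the 14 was called lower, whereas 8 of the forward members with another first base were (all 8-mers: 3.01% higher, 3.49% lower). acaCGTAA, for example, fell from 16.4 and 17.3 to 10.1 and 6.68, a change of -8.44 (SE 1.38, adjusted p = 0.0011) that was not called on the asinh or quantile scale or after normexp.

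The reverse members with C after TTACG share the bases CGC with the centre of the C/EBP palindrome. None of these 15 was called lower with 5mC, where 3.49% of all 8-mers were. On 5mC the 2 highest members of CEBPB(V285A) were TTACGcat, at 31.9 and 20.8, and TTACGcga, at 24.5 and 26.9. TTACGcga had scored 15.9 and 13.7 on C and rose by 10.9 (SE 1.37, adjusted p = 9.4e-05); TTACGcat had scored 15.3 and 13.6 and rose by 11.9 (SE 2.63, adjusted p = 0.011), a call lost without 2 of 4 arrays (11.0, adjusted p = 0.092, without the second array on C). Neither rise was called on the asinh or quantile scale. On 5hmC TTACGcga scored 11.4 and 8.27, a fall of -4.98 (adjusted p = 0.041). Of the 15 members of this class, 7 were called lower on 5hmC and none higher, against 4.90% and 2.36% of all 8-mers. TTACGcca fell there from 20.4 and 16.3 to 7.51 and 8.41 (-10.4, adjusted p = 0.00024) and TTACGcac from 12.7 and 10.0 to 2.79 and 2.20 (-8.86, adjusted p = 6.3e-06). On 5mC TTACGcca stood at 19.0 and 22.9 (2.58, adjusted p = 0.43).

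In pairs, 9 changed toward the forward member and 3 toward the reverse member in CEBPB(V285A) with 5mC (22.6%, against 4.85% of all pairs, 2.64% with a positive and 2.21% with a negative sign). Besides cga, the caa pair moved toward its forward member by 16.5 (SE 2.32, adjusted p = 2.1e-05). Its forward member scored 13.3 and 15.1 on C and 14.8 and 16.2 on 5mC, so the change lay mainly in TTACGttg. The atg pair moved toward its reverse member by -15.5 (SE 2.49, adjusted p = 0.00013) and the tcg pair by -15.0 (SE 1.63, adjusted p = 3.5e-07). With 5hmC, 5 pairs changed, all toward the forward member (9.43%, against 1.40% of all pairs called with a positive sign). Pairs without the half-site took their sign from alphabetical order, so these shares by sign have no forward or reverse meaning. The tgg pair, which had changed by -7.68 with 5mC, changed by 8.68 with 5hmC. On the asinh scale 3 pairs were called with 5mC and 1 with 5hmC, and after normexp 4 and 1. Without 1 array, 7 to 11 pairs were called with 5mC and 2 to 4 with 5hmC, the fewest without the first array on C.

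The effect of 5mC differed between the mutants. Of 107 members 2 were called higher and 17 lower in the test of the CEBPB(V285A) effect minus the CREB1(A297V) effect (17.8%, against 3.49% of all 8-mers, 1.58% higher and 1.91% lower), among them 8 of the 9 reverse members with T after TTACG. For TTACGtcg the effects differed by -26.4 (SE 2.09, adjusted p = 2.6e-06), since CREB1(A297V) scored 1.53 and 3.16 on C and 1.11 and 1.41 on 5mC. For cgaCGTAA they differed by 15.3 (SE 1.77, adjusted p = 1.0e-04), as CREB1(A297V) scored 2.68 and 4.31 on C and 4.07 and 4.55 on 5mC. For TTACGcga they differed by 8.62 (adjusted p = 0.021), a difference lost without 6 of 8 arrays in turn and of opposite sign on the asinh (-0.437) and quantile (-0.0785) scales. Of the 19 calls, 1 was made on the asinh scale, 5 after quantile normalization and 2 after normexp. A like test against CREB1 on 5mC, with its single array, was not made.

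The effect of 5hmC also differed between CEBPB(V285A) and CREB1, in 1 member upward and 8 downward (8.41%, against 1.98% of all 8-mers, 0.354% upward and 1.63% downward). All 8 were reverse members and 5 of them had T after TTACG. TTACGtcg fell further in CEBPB(V285A) by -18.4 (SE 2.09, adjusted p = 0.00046) and TTACGcac by -8.49 (SE 1.10, adjusted p = 0.0010). TTACGcac stood at 4.22 and 3.05 on C and 3.46 and 3.09 on 5hmC for CREB1. On the asinh scale and after normexp none of the members was called in this limma test (17 and 13 with an unadjusted p under 0.05, 26 in the analysis as reported), and leaving out 1 array gave 5 to 9 calls, the fewest without the first CREB1 array on C.

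Between proteins on the same DNA, the members scored higher with CEBPB(V285A) than with CREB1 on C. The median difference was 1.28, where that of all 8-mers was 0.00, and 12 members were called, all higher (11.2%, against 0.888% of all 8-mers called higher). TTACGtcg differed by 18.8 (SE 1.48, adjusted p = 2.2e-05), TTACGcca by 14.7 (SE 1.38, adjusted p = 8.4e-05) and TTACGcga by 10.9 (SE 1.37, adjusted p = 0.0010). None of the 12 calls was made on the asinh scale, after quantile normalization or after normexp. There 25, 12 and 13 members had an unadjusted p under 0.05 in limma. In the analysis as reported 44 members had one, where 8.10% of all 8-mers did. The arrays of CEBPB(V285A) reached higher Z-scores in general, and their experiment numbers differed from those of CREB1. If these mark batches, protein and batch cannot be told apart.

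On 5mC, members higher in CREB1(A297V) than in CEBPB(V285A) were forward and most of those lower were reverse. Of 12 called members (11.2%, against 5.45% of all 8-mers, 3.97% higher and 1.48% lower in CEBPB(V285A)) 7 were higher in CEBPB(V285A) and 5 in CREB1(A297V). All 5 of the latter were forward members, tcgCGTAA at -3.85, cttCGTAA at -5.29, actCGTAA at -2.96, gttCGTAA at -2.86 and tatCGTAA at -2.23. The former were 5 reverse members with C after TTACG and 2 forward members with A next to the CpG. TTACGcga differed by 22.2 (SE 1.37, adjusted p = 7.3e-08), TTACGcat by 22.0 (SE 2.63, adjusted p = 9.5e-05) and cgaCGTAA by 20.8 (SE 1.25, adjusted p = 5.8e-08). Each of these 3 was called without each array in turn. The mutants' 5mC arrays, too, carried different experiment numbers.

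On 5hmC the wild-type CEBPB domain ranked few of the members high. The median was 0.585, and 75 of 107 members had a mean above the array median. Only tgtCGTAA, at 6.95 and 11.3, lay among the 655 highest of 65535 8-mers, a share near that of all 8-mers. The next, TTACGcat, scored 3.39 and 1.95 and ranked 1358. Whether the other members were bound cannot be read from these relative scores. The C/EBP palindrome scored 35.2 ± 1.01 and the PAR palindrome 30.7 ± 10.2 (SD, n = 2) on the same arrays. CEBPB(V285A) scored higher in 18 members and lower in none (16.8%, against 1.92% of all 8-mers called higher), 6 of them among the 9 forward members with A next to the CpG. cgaCGTAA scored 1.42 and 0.857 with CEBPB, and the mutant lay 12.4 higher (SE 1.25, adjusted p = 0.00012), and TTACGcga -0.0184 and 0.267, with the mutant 9.71 higher (SE 1.37, adjusted p = 0.0015). Without the second CEBPB array 4 members were called, and the arrays of CEBPB and the mutant carried different experiment numbers.

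tgtCGTAA, the highest member of CEBPB on 5hmC, also scored well above the array median with the other proteins. It scored 7.17 and 13.8 with CEBPB(V285A), 5.32 and 4.62 with CREB1 and, as given above, 9.16 to 12.3 with CREB1(A297V). The arrays of CEBPB and both mutants overlapped, and those of CREB1 lay below them. The difference from CREB1 was 4.17 for CEBPB (adjusted p = 0.63), 5.50 for CEBPB(V285A) (adjusted p = 0.49) and 5.51 for CREB1(A297V) (adjusted p = 0.28); none was called. Its reverse complement lay between 0.169 and 2.07 on all of these arrays.

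The other contrasts on 5hmC gave few and unstable calls. CEBPB(V285A) was above CREB1 in 8 members (7.48%, against 1.85% of all 8-mers called higher), led by cgaCGTAA at 9.70 (SE 1.25, adjusted p = 0.00053). CREB1(A297V) was below CREB1 in 7 and above in 1 (7.48%, against 8.77% of all 8-mers, 6.22% below and 2.54% above), a share under the background; the 7 were all reverse members, such as TTACGacg at -3.49 and TTACGcac at -3.31. CEBPB was below CREB1 in 3 (2.80%, against 2.42% of all 8-mers called lower), a share near the background. Without 1 array the first gave 2 to 11 calls (fewest without the second CREB1 array on 5hmC), the second 0 to 11 (fewest without the first CREB1 array on 5hmC) and the last 0 in each case, where 16 members had an unadjusted p under 0.05 with all arrays.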

How the data were processed

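Per the labels, 21 arrays in 10 groups were used. The authors' deposited matrix holds a score (Z-score) per 8-mer and array; how it was made is not given in the sources used here. Per the file headers, the signal files hold, for 40330 spots, a median intensity for the spot and one for the background around it, with no subtraction. Read in reverse, the printed sequences gave the matrix names, so 8-mers are given as complements. For this, deposited Z-scores were set against the median uncorrected signal of each 8-mer's probes in 21 arrays. Pearson r over 8-mers was 0.603 to 0.986 in this reading and at most 0.818 in the others.

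Z-scores were fitted with limma 3.58.1 in R 4.3.3: 1 coefficient per group, all arrays, 11 residual degrees of freedom, a mean-variance trend, two-sided tests and Benjamini-Hochberg adjustment over all 65535 8-mers (32639 pairs for orientation). On simulated data for CEBPB(V285A) 5mC minus C the fit called 199 of 200 changed 8-mers and 17 unchanged ones. In pairs it called 155 of 199 changed and 11 unchanged ones. The planted changes were 8 residual SDs, in normal noise with the same SD in all groups. Smaller changes and groups of unlike spread were not simulated. Members, lists and tests were chosen with earlier results of these data known. Named were, per group, the 3 highest members and, per contrast, up to 5 called rises and 5 falls (3 each for pairs) whose arrays did not overlap, with the reverse complements of named members and the PAR, CRE and C/EBP palindromes. Naming gaa reverse, cccCGTAA and single values of named members in other groups followed after values were seen. Alternatives were asinh and quantile scales, Z-scores recomputed from intensity after normexp (offset 50), a minimum of 8 probes, experiment or replicate number as a block, 1 experiment only, and leaving out each array. Same-numbered arrays did not deviate together (r -0.381 to 0.190 over 28 pairs of groups), so numbers were not treated as pairs.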

Additional observations from a re-analysis of the deposited data

Results flagged for a closer look

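Among members chosen by the naming rule above, 14 differences of an effect between proteins passed limma's test of the difference itself (adjusted p under 0.05). For 5mC, CEBPB(V285A) minus CREB1(A297V), these were cgaCGTAA at 15.3, TTACGcga at 8.62, TTACGtcg at -26.4, TTACGttg at -14.8, acaCGTAA at -11.8, TTACGtgt at -9.41 and TTACGtct at -8.96. For 5hmC, CEBPB(V285A) minus CREB1, they were agtCGTAA at 3.56, TTACGtcg at -18.4, TTACGttg at -9.42, TTACGcca at -9.32, TTACGcac at -8.49 and TTACGtgt at -7.23. For 5hmC, CREB1(A297V) minus CREB1, it was TTACGaca at -11.8. TTACGtct and agtCGTAA were not shown before this list. The cause of these differences was not tested. In each, the proteins' arrays on at least 1 cytosine form carried different experiment numbers. No single array stood apart from its group in the 12 values of CREB1(A297V) on 5hmC that could be examined for this.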

How the results depend on the processing

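Of 95 named differences, 19 kept their call and direction under every alternative that could be run. In no case was the cause of a change tested. Counts of called members are given in the order CREB1 5mC minus C, CEBPB(V285A) 5mC minus C, CREB1(A297V) 5mC minus C, CEBPB(V285A) 5hmC minus C and CREB1(A297V) 5hmC minus C; as reported they were 5, 30, 1, 31 and 1. The asinh scale gave 1, 11, 0, 10 and 4. Quantile normalization gave 9, 10, 10 and 3 for the last 4 of these. Recomputing after normexp gave 3, 10 and 10 for CREB1 5mC and both CEBPB(V285A) comparisons. Keeping the arrays of 1 experiment gave 2 for CREB1 5mC and 0 for each CREB1(A297V) comparison. A minimum of 8 probes gave 3 for CREB1(A297V) 5mC, and the experiment as a block gave 2 for CREB1(A297V) 5hmC. With 0 called on the asinh scale for CREB1(A297V) 5mC, 23 members had an unadjusted p under 0.05 in limma. As reported, 34 members had one, where 10.6% of all 8-mers did.

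Between proteins, CEBPB(V285A) minus CREB1 on C had 12 calls and 0 on the asinh scale, after quantile normalization and after normexp. CREB1(A297V) minus CREB1 on C had 5, and 0 (asinh), 1 (normexp) and 1 (1 experiment). The mutants' difference on 5mC had 12, and 6 (asinh) and 19 (quantile). For 5hmC arrays, CEBPB(V285A) minus CREB1 had 8, and 5 (asinh) and 5 (quantile). CREB1(A297V) minus CREB1 had 8, and 21 (asinh) and 5 (quantile). CEBPB(V285A) minus CEBPB had 18, and 7 (quantile). CEBPB minus CREB1 had 3, and 9 (asinh), 1 (normexp) and 7 (1 experiment). The differences between effects had 19 (5mC, CEBPB(V285A) minus CREB1(A297V)), 9 (5hmC, CEBPB(V285A) minus CREB1) and 1 (5hmC, CREB1(A297V) minus CREB1). They had 1, 0 and 0 on the asinh scale, 2, 0 and 0 after normexp, 10 and 1 for the first pair after quantile normalization, and 2 for the last with at least 8 probes. In them TTACGcga reversed to -0.437 (asinh) and -0.0785 (quantile) for 5mC, and after normexp TTACGttg reversed to 0.130 and TTACGcca to 0.601 for 5hmC.

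Pairs called for CEBPB(V285A) 5mC, CREB1 5hmC and CEBPB(V285A) 5hmC numbered 12, 5 and 5. The asinh scale gave 3 and 1 for the CEBPB(V285A) comparisons and 2 for CREB1(A297V) 5hmC, which had 0 as reported. Normexp gave 4, 1 and 1, and 1 for CREB1(A297V) 5hmC.

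Replicate numbers did not pair the arrays. With the replicate number as a block, called members numbered 3 for CREB1 5mC, 2 for CREB1(A297V) 5mC, 19 for the mutants' difference on 5mC and 3 for the 5hmC effect of CREB1(A297V) minus CREB1, and pairs 3 for CREB1(A297V) 5mC, 9 for CEBPB(V285A) 5hmC and 1 for CREB1(A297V) 5hmC; the block moved no other count of calls by over 1.5 times.

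Leaving out 1 array at a time gave 2 to 5 members for CREB1 5mC, 15 to 22 for CEBPB(V285A) 5mC, 0 to 9 for CREB1(A297V) 5mC, 4 to 9 for CREB1 5hmC, 14 to 21 for CEBPB(V285A) 5hmC and 1 to 4 for CREB1(A297V) 5hmC. Between proteins it gave 7 to 12 (CEBPB(V285A) minus CREB1 on C), 0 to 7 (CREB1(A297V) minus CREB1 on C), 8 to 13 (the mutants on 5mC), 2 to 11 and 0 to 11 (CEBPB(V285A) and CREB1(A297V) minus CREB1 on 5hmC), 4 to 17 (CEBPB(V285A) minus CEBPB) and 0 to 0 (CEBPB minus CREB1). The differences between effects ranged over 13 to 26, 5 to 9 and 0 to 2, and pairs over 7 to 11, 1 to 2 and 2 to 4. A fit that left a group with 1 array assumed that it varied like the others. Precision is limited by the number of arrays, mostly 2 a group, and by signals close to the local background.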
